A study of Mus musculus with 10 samples.

Results

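The 10 genes described here are Sftpa1, Sftpb, Sftpc, Sftpd, Abca3, Lamp3, Napsa, Slc34a2, Lpcat1 and Nkx2-1, which serve pulmonary surfactant and the alveolar type 2 cell that makes it. They were chosen by symbol, with earlier results of these data known. Each symbol matched 1 Ensembl gene of the 47333 in the deposited table. All 10 were among the 18024 genes abundant enough to be tested. The data are RNA sequencing counts from a single lobe of the right lung, the middle one, of untreated naïve mice aged 12 weeks on a C57BL/6J background. The KO group (5 mice, 1 male and 4 females) lacks Bpifb1, a gene of a secreted airway protein, and the WT group (5 mice, 2 males and 3 females) carries it. How the KO allele was made, and whether these mice were littermates, is not given in the sources used here, and cages held both genotypes.

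Surfactant is a film of phospholipid and protein that lowers surface tension in the alveoli. Type 2 cells pack it into lamellar bodies, which are lysosome-related organelles, and secrete it. The small hydrophobic proteins SP-B and SP-C spread and stabilise the lipid film, while the collectins SP-A and SP-D bind carbohydrates on microbes. The transcription factor NKX2-1 is required for lung development and drives several surfactant protein genes.

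Totals ran from 21357424 to 28321294 estimated counts per mouse, and the lowest count of any of the 10 genes in any mouse was 4338 (Nkx2-1), so counting error is small beside the spread between mice. Levels are given as CPM, counts per 1000000 counts after TMM scaling between libraries. As a check of the labels, Bpifb1 measured 0.614 ± 0.462 CPM in the KO against 59.7 ± 23.6 CPM in the WT group (SD, n = 5 each), with a log2 difference of -6.55 ± 0.55 (SE; edgeR adjusted p 0.0275). The direction held in all 19 alternative fits and the call in 10 of them, and it was lost in females alone, by limma-voom and without any 1 of the KO mice, WT replicate 1 or WT replicate 5 (adjusted p up to 0.152, without KO replicate 2). KO replicate 5 is labelled female but had 1.78 CPM of Xist, where the males had 1.29 to 1.73 and the other females 274 to 407 CPM. Its counts of 4 Y-linked genes summed to 0, beside 2470 to 3441 in the males, so the edgeR fits were also run without it. The DESeq2 calls, CPM levels and CPM ranges given here include it. The surfactant protein genes were abundant in this tissue: by mean CPM Sftpc ranked 3, Sftpb ranked 9, Sftpa1 ranked 12 and Sftpd ranked 93 among all genes.

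Promoter sequences are shown for Sftpa1 and Sftpb, whose KO means were below their WT means, and for Abca3, whose KO mean was above it. They come from RefSeq (GRCm38.p6), where 7 of the 10 genes matched an entry, and each is the 250 bases before the RefSeq start, 5′ to 3′ on the plus strand, which is that of the genes: Sftpa1 chr14:41131538-41131787, Sftpb chr6:72304360-72304609 and Abca3 chr17:24351773-24352022. In GENCODE, which supplied the gene positions given below, the starts of Sftpa1 (41131782) and Abca3 (24351950) lie within these windows. The Slc34a2 window, not shown, lies inside its GENCODE gene. Capitals mark the letters CTCAAG, a core of the site bound by NKX2-1, and TATAAA, the box that can position the start of transcription, both searched on either strand. No matches overlapped.
Sftpa1: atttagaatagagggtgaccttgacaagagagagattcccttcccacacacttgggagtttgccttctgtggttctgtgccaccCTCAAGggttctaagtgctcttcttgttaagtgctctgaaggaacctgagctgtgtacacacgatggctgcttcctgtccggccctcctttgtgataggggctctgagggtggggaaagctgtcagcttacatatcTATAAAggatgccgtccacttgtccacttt
Sftpb: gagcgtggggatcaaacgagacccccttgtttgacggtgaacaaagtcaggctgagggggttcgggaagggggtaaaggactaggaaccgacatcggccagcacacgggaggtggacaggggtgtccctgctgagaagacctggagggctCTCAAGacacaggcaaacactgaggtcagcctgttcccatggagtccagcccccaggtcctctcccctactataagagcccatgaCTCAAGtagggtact
Abca3: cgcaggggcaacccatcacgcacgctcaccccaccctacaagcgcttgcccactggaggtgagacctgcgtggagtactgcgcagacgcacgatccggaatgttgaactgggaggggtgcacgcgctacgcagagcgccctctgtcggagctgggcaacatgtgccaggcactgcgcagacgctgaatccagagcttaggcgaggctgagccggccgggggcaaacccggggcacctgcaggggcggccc

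In these windows CTCAAG occurred in Sftpa1, beginning 166 bases before the start, and in Sftpb, beginning 100 and 15 bases before it. The letters were absent from the windows of Abca3, Lamp3, Slc34a2, Lpcat1 and Nkx2-1. Of these, Slc34a2 and Lpcat1 also had KO means below their WT means, at 97.2% and 98.3% of them. A relation between the letters and genotype was not tested. Sftpc, Sftpd and Napsa, whose KO means were also below their WT means, had no entry and were not searched. Of 32851 promoter entries of this length 13.3% held CTCAAG and 12.4% held TATAAA, which among the 7 matched genes stood only in Sftpa1, beginning 30 bases before the start. GC content was 50% in the Sftpa1 window, 58.4% in that of Sftpb and 67.6% in that of Abca3. These are matches of letters, not measured binding.

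No gene of the 10 passed an adjusted p under 0.05 between KO and WT by edgeR's quasi-likelihood test, where 0.0222% of all tested genes did. The 4 surfactant protein genes and Napsa, the protease gene, had KO means of 85.7% to 90.1% of the WT means, and these 5 had an unadjusted p under 0.05. Over all tested genes 8.04% had such a p with a lower level in KO and 17.0% in either direction. Abca3, Lamp3, Slc34a2, Lpcat1 and Nkx2-1 had KO means of 97.2% to 104.8% of the WT means. By DESeq2's Wald test, in which 0.516% of tested genes were called lower in KO, Sftpa1 (adjusted p 0.0261) and Napsa (adjusted p 0.0013) were called. In either direction DESeq2 called 1.92% of tested genes. A negative log2 value was found for 7 of the 10 genes and for 50.7% of tested genes. At an unadjusted p under 0.05, 0 of the 10 were higher in KO, beside 8.92% of tested genes. The 10 genes share their mice and were chosen with earlier results known, so these shares are description only. The CPM ranges of the genotypes overlapped in each of the 10 genes, whereas 1.88% of tested genes had ranges apart, 0.921% with KO below WT. With single mice left out, the genes of the 10 with an unadjusted p under 0.05 numbered 2 to 5, with 2 without KO replicate 2 and 2 without WT replicate 4 (Sftpa1 and Napsa in both), 3 without KO replicate 1, 3 without WT replicate 1 and 4 without KO replicate 5. In RNA from lobe tissue, fewer type 2 cells and less RNA per cell cannot be told apart.

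**Figure D1:**
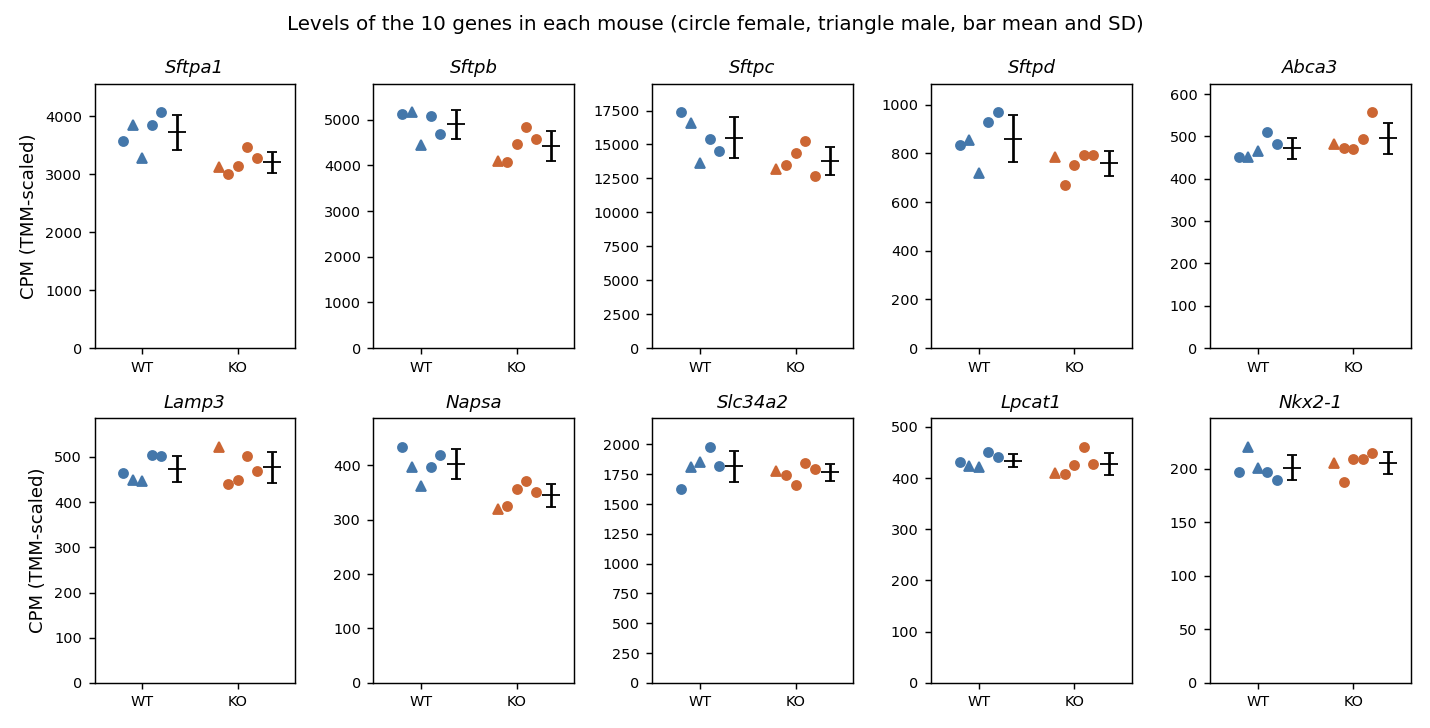
CPM (TMM-scaled, axes from 0) of each gene in each mouse, WT in blue and KO in orange, circles for females and triangles for males, with mean ± SD as black bars and replicates 1 to 5 from left to right. The KO points of the 4 Sftp genes and Napsa lie mostly below the WT points, with WT replicate 3 among the KO points, while those of the other genes intermingle.

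The hydrophobic surfactant proteins come first. Sftpc (ENSMUSG00000022097; GRCm38 chromosome 14, 70520949 to 70524081, minus strand) encodes SP-C, the classical marker of the type 2 cell. Its level in KO replicates 1 to 5 was 13213, 13492, 14370, 15244 and 12646 CPM. In WT replicates 1 to 5 it was 17396, 16587, 13609, 15392 and 14541 CPM. WT replicates 1 and 2 stood highest and KO replicates 5 and 1 lowest, with KO replicate 4 above WT replicates 3 and 5. This gave a log2 difference of -0.18 (SE 0.08), with an edgeR adjusted p of 0.283. Its direction held in all 19 alternative fits. With each of the 10 mice left out in turn, 3 fits had an edgeR unadjusted p under 0.05. Without WT replicate 1 the log2 value was weakest of these at -0.13, with an edgeR adjusted p of 0.597. Without KO replicate 5 it was -0.15 with an edgeR adjusted p of 0.456.

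Sftpb (ENSMUSG00000056370; chromosome 6, 72304610 to 72314371, plus strand) encodes SP-B, without which lamellar bodies do not form properly and newborns cannot breathe. KO replicates 1 to 5 measured 4107, 4069, 4478, 4845 and 4579 CPM. WT replicates 1 to 5 measured 5125, 5171, 4439, 5077 and 4694 CPM. Here 3 WT mice (replicates 1, 2 and 4) were above every KO mouse, and KO replicates 1 and 2 were below every WT mouse. Between genotypes the log2 difference was -0.17 ± 0.07 (SE; edgeR adjusted p 0.247).

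The collectin genes lie on chromosome 14, 35761 bases apart and on opposite strands, with Mbl1 as the 1 gene of the table between them. Sftpa1 (ENSMUSG00000021789; 41131782 to 41136452, plus strand), the SP-A gene of the mouse, measured 3125, 3006, 3152, 3464 and 3291 CPM in KO replicates 1 to 5. In WT replicates 1 to 5 it measured 3568, 3848, 3289, 3845 and 4077 CPM. Apart from WT replicate 3, every WT mouse was above every KO mouse. The log2 difference was -0.23 ± 0.07 (SE; edgeR adjusted p 0.158), and it ran from -0.26 to -0.20 over the 19 alternative fits.

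Sftpd (ENSMUSG00000021795; 41172214 to 41185149, minus strand), the SP-D gene, had the widest scatter of the 4 among WT mice, with a coefficient of variation of 11.3%. KO replicates 1 to 5 measured 784, 670.8, 751, 793 and 795 CPM. WT replicates 1 to 5 measured 835, 853, 718, 929 and 969.9 CPM, so that, as for Sftpa1, each WT mouse but replicate 3 was above all KO mice. KO minus WT, the log2 difference was -0.20 ± 0.08 (SE; edgeR adjusted p 0.229). Mbl1, the mannose-binding lectin gene between both, was low in lung at 0.933 ± 0.216 CPM in the KO against 0.874 ± 0.235 CPM in the WT group (SD, n = 5 each).

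Summed over the mouse's library, the 4 surfactant protein genes took 2.13% to 2.40% of all counts in KO and 2.20% to 2.70% in WT mice. Their summed level was 22175 ± 1375 CPM in the KO against 24993 ± 1941 CPM in the WT group (SD, n = 5 each). KO replicate 4, at 24346 CPM, exceeded WT replicate 5 (24282 CPM) and WT replicate 3 (22055 CPM).

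Of the lamellar body and processing genes, Napsa stood with the surfactant proteins. It encodes napsin A, an aspartic protease that trims the SP-B and SP-C precursors (ENSMUSG00000002204; chromosome 7, 44572380 to 44586862, plus strand). KO replicates 1 to 5 measured 321, 325, 356, 370.4 and 351 CPM. WT replicates 1 to 5 measured 434, 398, 362, 398 and 419.8 CPM. The groups were parted but for KO replicate 4, which lay above WT replicate 3. This gave a log2 difference of -0.25 (SE 0.05), with an unadjusted p of 4.31e-04 and an edgeR adjusted p of 0.109. The antisense gene Gm15396 overlaps Napsa at a mean of 45.5 CPM with a log2 difference of -0.20 ± 0.07 (SE; edgeR adjusted p 0.210), and since strand-aware counting is not stated in the sources used here, reads of both cannot be told apart.

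Abca3 encodes the transporter that moves phospholipid into the lamellar body (ENSMUSG00000024130; chromosome 17, 24351950 to 24410201, plus strand). It measured 482, 473, 469, 495 and 558 CPM in KO replicates 1 to 5 and 453, 451, 465.7, 510.2 and 483 CPM in WT replicates 1 to 5. KO replicate 5 was highest and the genotypes intermingled below it. Between genotypes the log2 difference was 0.06 ± 0.06 (SE; edgeR adjusted p 0.675), and it was 0.02 without KO replicate 5. A transcript on the other strand, D330041H03Rik, overlaps Abca3 at a mean of 99.3 CPM, and the estimated counts of Abca3 were not whole numbers in any of the 10 mice.

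Lamp3, also called DC-LAMP, encodes a glycoprotein of the lamellar body membrane that mature dendritic cells make as well (ENSMUSG00000041247; chromosome 16, 19653378 to 19706375, minus strand). Its level was 523, 440.3, 450.1, 502 and 469 CPM in KO replicates 1 to 5 and 465.6, 448, 448, 505 and 503 CPM in WT replicates 1 to 5. The male KO replicate 1 was highest and KO replicate 2 lowest. The log2 difference was 0.01 ± 0.06 (SE; edgeR adjusted p 0.969), with a sign that changed in 8 of the 19 alternative fits. The summed level of the 5 dendritic markers (Ccr7, Flt3, Zbtb46, Fscn1 and Itgax) ran from 146 to 167 CPM in KO and from 136 to 154 CPM in WT mice, and their part in Lamp3 was not tested.

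Among genes of lipid and phosphate handling, Lpcat1 encodes the acyltransferase that makes the saturated phosphatidylcholine of surfactant (ENSMUSG00000021608; chromosome 13, 73467197 to 73516422, plus strand). It measured 409, 409, 426, 461 and 429 CPM in KO replicates 1 to 5 and 432, 424, 422, 451 and 441 CPM in WT replicates 1 to 5. Its coefficient of variation of 2.76% in WT mice was the lowest of the 10 (5.03% in KO mice), and its log2 difference was -0.04 ± 0.05 (SE; edgeR adjusted p 0.730).

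Slc34a2 encodes the sodium-phosphate cotransporter of the type 2 cell, which clears phosphate released by surfactant breakdown (ENSMUSG00000029188; chromosome 5, 53038081 to 53071664, plus strand). It measured 1780.3, 1747, 1659, 1846 and 1795 CPM in KO replicates 1 to 5 and 1624, 1806, 1849.7, 1981 and 1819.6 CPM in WT replicates 1 to 5. The WT mice held both the lowest and the highest value. KO minus WT, the log2 difference was -0.04 ± 0.06 (SE; edgeR adjusted p 0.803).

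Nkx2-1, the transcription factor gene (ENSMUSG00000001496; chromosome 12, 56531958 to 56536908, minus strand), measured 206, 188, 209, 209 and 215 CPM in KO replicates 1 to 5. In WT replicates 1 to 5 it measured 197, 220.4, 201, 197 and 189 CPM. KO replicate 2 and WT replicate 5 were lowest and the male WT replicate 2 highest, so the order was not one of genotype. This gave a log2 difference of 0.05 ± 0.05 (SE; edgeR adjusted p 0.700).

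**Figure D2:**
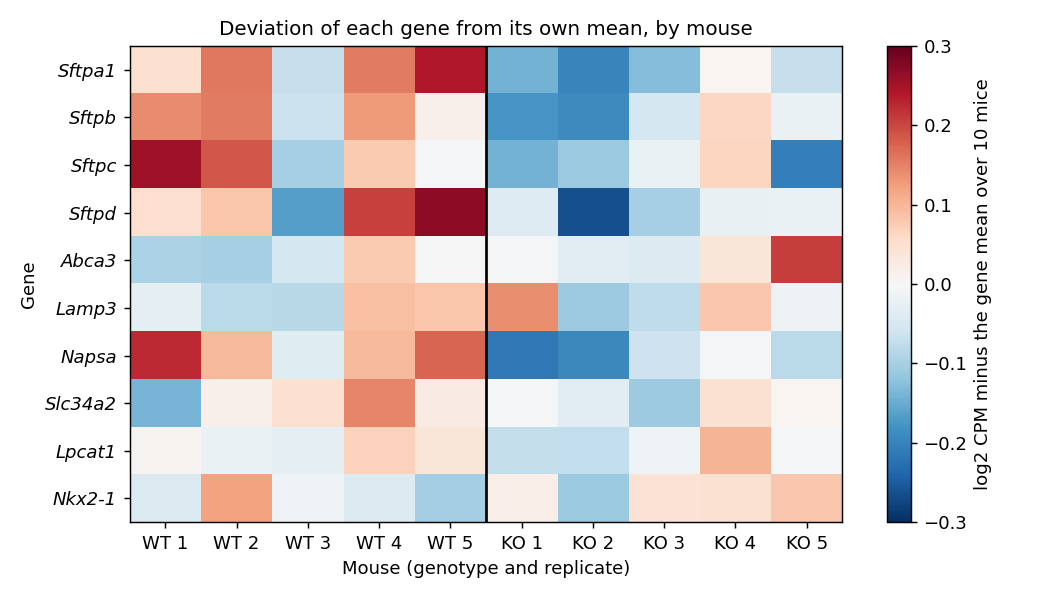
Log2 CPM of each gene (rows) in each mouse (columns, WT left and KO right of the line) minus the mean of that gene over the 10 mice, from -0.3 (blue) to 0.3 (red). In KO replicate 2 all 10 genes lie below their mean, in WT replicate 4 there are 9 above it, and WT replicate 3 (1 above) and KO replicate 4 (8 above) go against the rest of their groups.

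The mice of a group differed among themselves in these genes. WT replicate 3 had 1 of the 10 genes above its mean, the fewest of any WT mouse, and KO replicate 4 had 8, the most of any KO mouse. Mean deviations over the 10 genes ran from -0.13 to 0.04 in KO and from -0.06 to 0.10 in WT mice on the log2 scale. WT replicate 3 was the lowest WT mouse for each of the 4 Sftp genes and Napsa, whereas Abca3 was highest in KO replicate 5 and Nkx2-1 in WT replicate 2. The median coefficient of variation of the 10 genes was 6.52% in KO and 6.65% in WT mice, beside 5.84% and 7.18% over 2112 other tested genes with a mean of at least 100 CPM.

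Compared per length, as CPM per kilobase of exon, the levels in WT mice spanned a wide range. Sftpc stood first at 14995 ± 1473 CPM per kilobase, before Sftpb at 2491 ± 163 and Sftpa1 at 1303 ± 106 CPM per kilobase (SD, n = 5). Slc34a2 (362 ± 25.5) and Sftpd (356 ± 40.2 CPM per kilobase) followed and did not differ beyond their spread, nor did Napsa (151 ± 10.2) and Lamp3 (141 ± 8.45 CPM per kilobase). Lpcat1 came next at 93.7 ± 2.59, then Nkx2-1 at 70.7 ± 4.15 and Abca3 at 50.4 ± 2.64 CPM per kilobase (SD, n = 5). The ranges of the WT mice did not overlap between the other neighbours in this order. In KO mice Napsa (129.6 ± 7.98 CPM per kilobase) stood below Lamp3 (142 ± 10.4 CPM per kilobase; SD, n = 5 each), the one change of place.

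The genotype differences moved with gene length and GC content over the whole table. Among tested genes the 4503 with the shortest exon length (median 1272 bases) had a median log2 difference of -0.08, and the 4506 with the longest (median 8474 bases) one of 0.08. The 4 Sftp genes and Napsa have exon lengths of 1034 to 2860 bases, Nkx2-1 has 2842 bases and the other 4 genes have 3356 to 9374 bases. With length and GC offsets, an alternative chosen after seeing the data, the log2 difference of Sftpb became -0.07 and that of Sftpc -0.07 (edgeR adjusted p 0.571 and 0.598). Sftpa1 stayed at -0.22, Napsa stood at -0.17 and Sftpd at -0.14 (edgeR adjusted p 0.175, 0.125 and 0.414). Nkx2-1 stood at 0.12, higher in KO (edgeR unadjusted p 0.0112, adjusted p 0.228). The part of length and GC content in the genotype differences of these genes was not tested further.

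**Figure D3:**
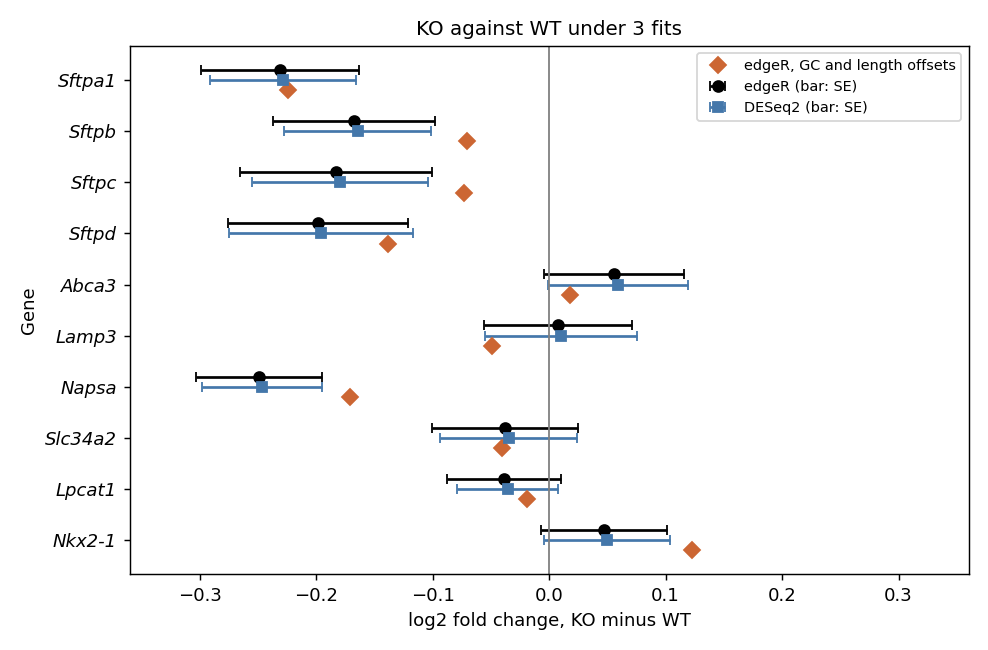
Log2 differences (KO minus WT) of the 10 genes by edgeR (black, bars are SE), by DESeq2 (blue squares, bars are SE) and by edgeR with the length and GC offsets (orange diamonds, no bar drawn). The edgeR values of the Sftp genes and Napsa lie between -0.25 and -0.17, and the offsets bring Sftpb and Sftpc to -0.07.

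Markers of other cells in the lobe were summed in each mouse. The summed level of the 5 club cell markers (Scgb1a1 and 4 more) ran from 24492 to 27471 CPM in KO and from 24970 to 32029 CPM in WT mice. Club cells also make SP-A, SP-B and SP-D, and their part in these genes was not tested. The sum of 8 alveolar type 1 markers ran from 4853 to 5448 CPM in KO and from 5041 to 5914 CPM in WT mice. The sum of 6 alveolar macrophage markers ran from 418 to 608 CPM in KO and from 507 to 638 CPM in WT mice. The 5 endothelial markers summed to 2598 to 2731 CPM in the KO against 2207 to 2764 CPM in the WT group. No marker of these 4 lists passed an edgeR adjusted p under 0.05, and 1 (a type 1 marker) had an unadjusted p under 0.05, lower in KO. Of the ciliated, fibroblast, smooth muscle, leukocyte and dendritic markers 0 passed an edgeR adjusted p under 0.05. At an unadjusted p under 0.05, 2 ciliated, 1 leukocyte and 1 dendritic marker were higher in KO, and 2 fibroblast and 1 smooth muscle marker were lower. Over all tested genes 8.92% were higher and 8.04% lower in KO at such a p. No marker was at 0 in all mice. Median log2 differences were -0.10 for club, -0.09 for smooth muscle and -0.08 for alveolar macrophage markers, beside -0.10 for the 10 genes. They were 0.0049 for type 1, 0.02 for leukocyte and for dendritic, 0.04 for fibroblast and 0.07 for ciliated and for endothelial markers.

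Further genes of the surfactant pathway were read from lists by function. The counts below stand beside 8.92% of all tested genes higher and 8.04% lower in KO at an unadjusted p under 0.05. KO and WT ranges stood apart in 1.88% of all tested genes, and in 0.921% with KO below WT. In these lists they stood apart in 1 of 18 lamellar body, 1 of 22 other marker and 1 of 12 clearance genes. They did so in 0 of the lipid, regulator and lectin genes. Of 18 lamellar body and processing genes, all tested, 0 passed an edgeR adjusted p under 0.05 and 1 had an unadjusted p under 0.05, lower in KO. The median log2 difference was 0.04, beside 0.00 (-0.0027) over all tested genes and -0.10 over the 10 surfactant and type 2 genes. The 1 gene was Ctsh, cathepsin H, another protease of the SP-B and SP-C precursors. It measured 216 to 254 CPM in the KO against 263 to 308 CPM in the WT group, ranges that did not overlap. Its log2 difference was -0.25 ± 0.06 (SE; edgeR adjusted p 0.125), from -0.28 to -0.21 over 19 alternative fits, and DESeq2's Wald test called it (adjusted p 0.0091). Anxa7, an annexin that promotes membrane fusion, had a log2 difference of -0.09 (SE 0.04) and Lyst, a regulator of lysosome size, one of 0.12 (SE 0.06).

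Of 18 surfactant lipid genes 0 passed, with 2 higher and 4 lower in KO at an unadjusted p under 0.05 and a median log2 difference of 0.06. The lower 3 with the smallest p were Plin2, Elovl1 and Dbi. Plin2, a lipid droplet coat protein, measured 113 ± 7.77 CPM in the KO against 132.8 ± 7.93 CPM in the WT group (SD, n = 5 each), a log2 difference of -0.20 ± 0.05 (SE; edgeR adjusted p 0.124). Elovl1, a fatty acid elongase, had a log2 difference of -0.20 (SE 0.07) and Dbi, an acyl-CoA binding protein, one of -0.18 (SE 0.07).

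Of 22 other type 2 cell markers 0 passed, with 1 higher and 5 lower in KO at an unadjusted p under 0.05 and a median log2 difference of -0.04. Elovl1 is in this list and in the surfactant lipid list, and it counts among the lower genes of both. Mlc1, a membrane protein, had the smallest p of the list at 49.7 ± 3.02 CPM in the KO against 58.7 ± 4.77 CPM in the WT group (SD, n = 5 each), a log2 difference of -0.27 ± 0.06 (SE; edgeR adjusted p 0.0999). Soat1, which esterifies cholesterol, was the 1 higher gene, with a log2 difference of 0.18 ± 0.05 (SE; edgeR adjusted p 0.151) and ranges of 142 to 154 CPM in the KO against 119 to 138 CPM in the WT group that did not overlap.

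Of 15 regulators of the type 2 cell 0 passed, with 3 higher and 3 lower in KO at an unadjusted p under 0.05 and a median log2 difference of 0.01. Bmp4, a growth factor gene, measured 78.9 ± 3.82 CPM in the KO against 88.3 ± 7.37 CPM in the WT group (SD, n = 5 each), a log2 difference of -0.19 ± 0.05 (SE; edgeR adjusted p 0.133). The nuclear factor genes Nfia and Nfib had log2 differences of 0.32 (SE 0.10) and 0.26 (SE 0.09), with edgeR adjusted p of 0.172 and 0.193.

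Surfactant is cleared in part by alveolar macrophages under control of the cytokine GM-CSF. Of 12 clearance genes 0 passed, with 4 higher and 1 lower in KO at an unadjusted p under 0.05 and a median log2 difference of 0.00 (0.0019). Csf2rb, the common beta chain of the GM-CSF receptor, measured 47.7 to 49.6 CPM in the KO against 41.6 to 45.5 CPM in the WT group, ranges that did not overlap, with a log2 difference of 0.19 ± 0.05 (SE; edgeR adjusted p 0.130). Csf2rb2, its near copy, with which it may share reads, had a log2 difference of 0.27 (SE 0.08) and the cholesterol exporter gene Abca1 one of 0.26 (SE 0.10). Of 5 other collectin and lectin genes 3 were tested and 0 had an unadjusted p under 0.05: Colec12 at 0.02 (SE 0.07), Colec11 at 0.04 (SE 0.20) and Mbl1 at 0.01 (SE 0.23) on the log2 scale. By DESeq2's Wald test Plin2, Bmp4, Mlc1, Soat1 and Csf2rb were called besides Ctsh. These were 1 of 18 lipid, 1 of 15 regulator, 2 of 22 other marker, 1 of 12 clearance and 1 of 18 lamellar body genes. The same test called 1.92% of all tested genes in either direction and 0.516% lower in KO.

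**Figure D4:**
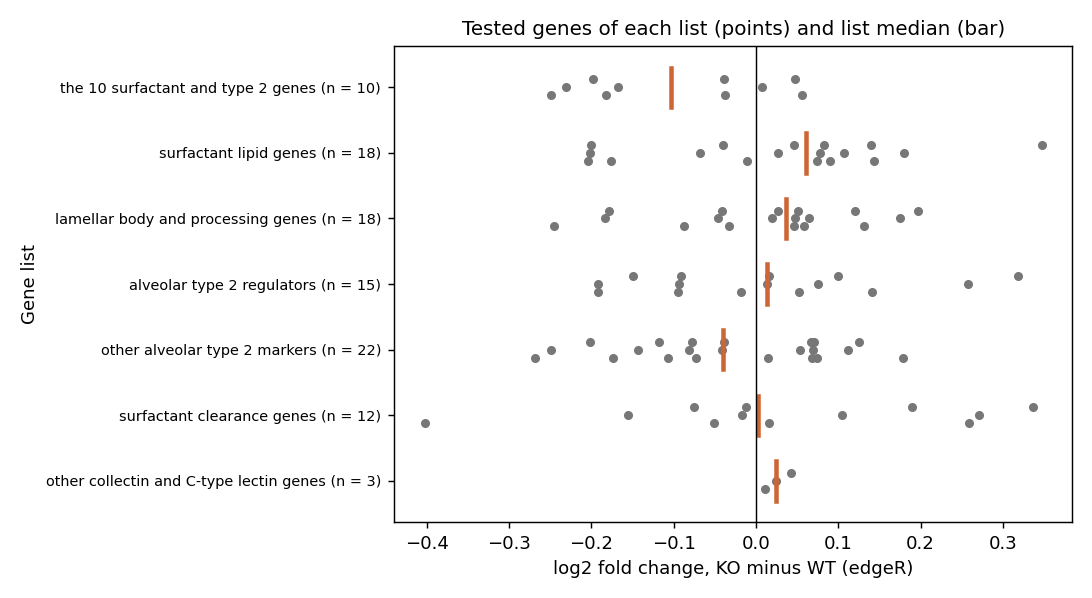
Log2 difference (KO minus WT, edgeR) of each tested gene (grey points) of the 10 surfactant and type 2 genes and of 6 further lists, with the median of each list as an orange bar. The bar of the 10 genes stands at -0.10, and the medians of the 6 further lists lie between -0.04 and 0.06. The club cell markers, not drawn here, had a median of -0.10 too.

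Sex was the other label. Of the 10 genes 0 passed between 3 males and 7 females by edgeR, where 0.583% of tested genes did, and 0 passed by DESeq2, where 2.42% did. A negative log2 value was found for 8 of the 10, beside 51.7% of tested genes. Napsa alone had an unadjusted p under 0.05, lower in males, beside 15.1% of tested genes in either direction, 7.79% lower and 7.34% higher in males. Its level was 360.3 ± 38.6 CPM in the 3 males against 379 ± 39.4 CPM in the 7 females. Its log2 difference for males was -0.13 (SE 0.06, edgeR adjusted p 0.307; unadjusted 0.0421, and 0.0517 without KO replicate 5), and those of the other 9 genes ran from -0.10 for Sftpd to 0.07 for Nkx2-1. Among the further lists Klf5, a transcription factor of the airway and alveolar epithelium, was the 1 gene that passed: it was higher in males, at 41.3 ± 2.94 CPM in the 3 males against 32.9 ± 1.80 CPM in the 7 females, with a log2 difference of 0.35 ± 0.06 (SE; edgeR adjusted p 0.0202). Of 18 alternative fits 14 called it, with an adjusted p of 0.154 without KO replicate 1, 0.0502 without KO replicate 2, 0.0808 without WT replicate 2 and 0.0578 with no genotype covariate.

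The genes whose levels most resembled the mean deviation of the 10 genes over the 10 mice were Slc52a3, Ctsd, Ccdc32, Lyz2 and Actr1b, with Pearson's r from 0.90 to 0.93. They were ranked among 12867 other tested genes with a mean of at least 5 CPM. All these values share their libraries. Lyz2, the lysozyme gene of macrophages and type 2 cells, measured on average 5034 CPM in the KO against 5618 CPM in the WT group, and Ctsd, the lysosomal protease cathepsin D, 515 and 557 CPM. Lyz2 was lowest in KO replicate 2 (4771 CPM) and WT replicate 3 (4909.8 CPM). These genes were picked for this likeness, so their KO means and lowest mice are not separate observations.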

How the data were processed

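Per the labels' protocols, RNA was made into stranded mRNA libraries (KAPA kit) and read as 50 bp single reads on an Illumina HiSeq instrument. The authors deposited 1 table of estimated counts per gene, not scaled between samples. The submitters' processing notes name FastQC, MultiQC, STAR 2.6.0 and Salmon 0.9.1 and the builds mm10 and GRCm38, without their roles. Of non-zero values 30.1% lay over 0.01 from a whole number. The annotation, filters and use of strand are not given in the sources used here. GENCODE M21 (GRCm38) supplied gene symbols, positions and exon lengths and matched 47281 of 47333 identifiers.

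Counts were rounded. The log2 difference is edgeR's log2 fold change, and its SE is its size divided by the root of the F statistic. KO and WT were compared by edgeR's quasi-likelihood test (edgeR 4.0.16, R 4.3.3, robust, TMM, filterByExpr with minimum count 10 and total 15) with sex as covariate and Benjamini-Hochberg adjustment over 18024 genes. Genes were called at an adjusted p under 0.05. Other fits used DESeq2 1.42.0 (its filter on mean counts off), limma-voom (limma 3.58.1), DESeq2 size factors, no filter, a mean CPM of at least 1, no robust dispersion, no sex or genotype covariate, females alone, and each mouse left out. Offsets (lowess on GC content, then exon length, span 0.3) were added after seeing the data. The scripts were tested on simulated counts. The members, gene lists and markers were chosen with earlier results of these data known. Named genes were all members, Bpifb1, the 3 smallest p per list, any gene called, and the 5 most alike in log2 CPM (prior count 2). Replicates were numbered in accession order. Nothing in the labels says more of how the mice were sampled, so p-values measure the spread between these samples. Totals of 21357424 to 28321294 counts put 3 counts at 0.106 to 0.141 CPM, counting error only.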

Additional observations from a re-analysis of the deposited data

How the results depend on the processing

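The count of 4 genes called between KO and WT became 346 by DESeq2's Wald test, 50 with no filter on low counts, 15 with the GC and length offsets and 2 by limma-voom, and ran from 2 (without KO replicate 2, 4 or 5 or WT replicate 1) to 18 (without WT replicate 3) with single mice left out. Of the 10 surfactant and type 2 genes 2 were called by DESeq2 and 0 in the 18 other fits. In those 18 fits 2 to 5 were lower in KO at an unadjusted p under 0.05. With the offsets 2 were lower at such a p and Nkx2-1 was higher (edgeR unadjusted p 0.0112). The count of 105 genes called between the sexes became 436 by DESeq2, 217 with the offsets, 197 with no filter and 41 with no genotype covariate, and ran from 0 (without KO replicate 1) to 195 (without WT replicate 4) with single mice left out. The cause was not tested.

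Lamp3, with a log2 difference of 0.0075, had the opposite sign in females alone (-0.078), with no filter (-0.0011) and with the offsets (-0.049), and ran from -0.078 to 0.037 with single mice left out. Slc34a2 ran from -0.085 to 0.0094 there, turning sign once. Between the sexes, with single mice left out, Lamp3 ran from -0.133 to 0.028 and Slc34a2 from -0.024 to 0.055. The other 8 genes kept their direction in all 19 fits for genotype and 18 for sex. No paired analysis was possible because the labels number the mice in one series and pair none across genotypes.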
